A study of Mus musculus with 7 samples.

Results

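The genes described here are 48 factors of nonsense-mediated decay, the RNA exosome, decapping and deadenylation, taken by symbol from a table of 13167 mouse transcripts. Each symbol occurred once in the table. They fall into 4 sub-complexes: 7 nonsense-mediated decay (NMD) factors, 14 subunits of the exosome and the Ski complex, 15 decapping, Lsm and Xrn factors, and 12 subunits of the Ccr4-Not and Pan deadenylases with Parn. Ribosome profiling counts the stretches of mRNA that ribosomes protect from nuclease, so a gene's coding footprints reflect how many ribosomes sat on its mRNA. The libraries came from primary epidermis of mice, with 2 libraries of a transgenic Pelota knockout (KO) and 2 of wild type (WT). RNA-seq (2 KO, 1 WT) belongs to the same series and was not analysed here, so more mRNA and more ribosomes per mRNA cannot be told apart. The sources used here do not give the deleted stretch of Pelo, the promoter that drove its deletion, the age of the mice or whether each library came from its own animal.

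Pelota, with its partner Hbs1l, frees ribosomes that have stalled at the end of an mRNA or inside it. Cells pair this rescue with destruction of the mRNA. In NMD, the helicase Upf1 and its Upf and Smg partners mark mRNAs on which translation stopped too early. The exosome degrades RNA from its 3′ end and is fed in the cytoplasm by the Ski complex, while decapping by Dcp2 opens the 5′ end to the exonuclease Xrn1. Most mRNAs first lose their poly(A) tail to the Pan2-Pan3 and Ccr4-Not deadenylases. In bulk tissue, fewer cells of a type and less RNA per cell cannot be told apart.

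The libraries held 4221675 to 5282276 coding footprints, and the median listed transcript had 90 to 112. The targeted gene, Pelo, was read 24 and 21 times in KO libraries and 101 and 61 times in WT libraries (log2 change −1.65, SE 0.245, edgeR adjusted p = 0.000807). The share of coding footprints on markers of several cell types differed between the genotypes. The 8 fibroblast markers, all present, took 3.94% to 4.49% of coding footprints in KO and 8.44% to 12.6% in WT, and 6 of them were lower in KO. The 8 suprabasal keratinocyte markers took 5.63% to 6.05% in KO against 1.81% to 2.04% in WT, and 7 of them were higher, while the 7 basal markers took 2.22% to 2.43% against 1.58% to 1.69%, with 2 of them higher and 2 lower. Of smaller lists, all 4 melanocyte markers were higher (0.0146% to 0.0285% against 0.00210% to 0.00239%), all 4 tested adipocyte markers lower (0.0179% to 0.0238% against 0.0451% to 0.0720%), and 3 of 5 T cell markers lower (0.0333% to 0.0350% against 0.0496% to 0.0540%). Of 4 endothelial markers 0 were higher and 0 lower, and of 2 tested skeletal muscle markers 1 was lower. No marker of these lists was missing from the table. The part of this difference in the values below was not tested.

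Among the 48 factors, 14 carried more coding footprints in KO and 1, the NMD endonuclease Smg6, carried fewer. Of 47 that could be tested, 32 were not called and 1 further factor, Dcp1b, was under the table's listing limit in KO. Over all 10953 genes tested with edgeR's quasi-likelihood test at an adjusted p of 0.05, 19.9% were higher and 19.1% lower in KO, or 39.0% in either direction. Among the 47 factors the shares were 29.8% higher and 2.13% lower. Their median log2 change was 0.20, beside −0.02 for all genes. KO and WT values did not overlap in 28 of the 47, or 59.6%, a smaller share than the 71.9% of all genes.

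How many factors passed depended on scaling and tool. Scaled to library totals alone, 8 factors were higher and 4 lower. That scaling shifted the median of all genes by −0.18 and the whole table to 1501 higher and 3023 lower, against 2184 and 2093 with the default scaling. The factors' median then lay at 0.02 and that of all genes at −0.20. DESeq2 called 9 factors higher and 0 lower, with 0 lower also at an unadjusted p under 0.05. Over all genes it called 1492 higher and 1177 lower. The 8 that passed in all 10 alternative analyses were Dis3, Ttc37, Wdr61, Lsm4, Lsm5, Xrn2, Cnot2 and Cnot6l. The share of all called genes that passed in every alternative is not given here.

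**Figure D1:**
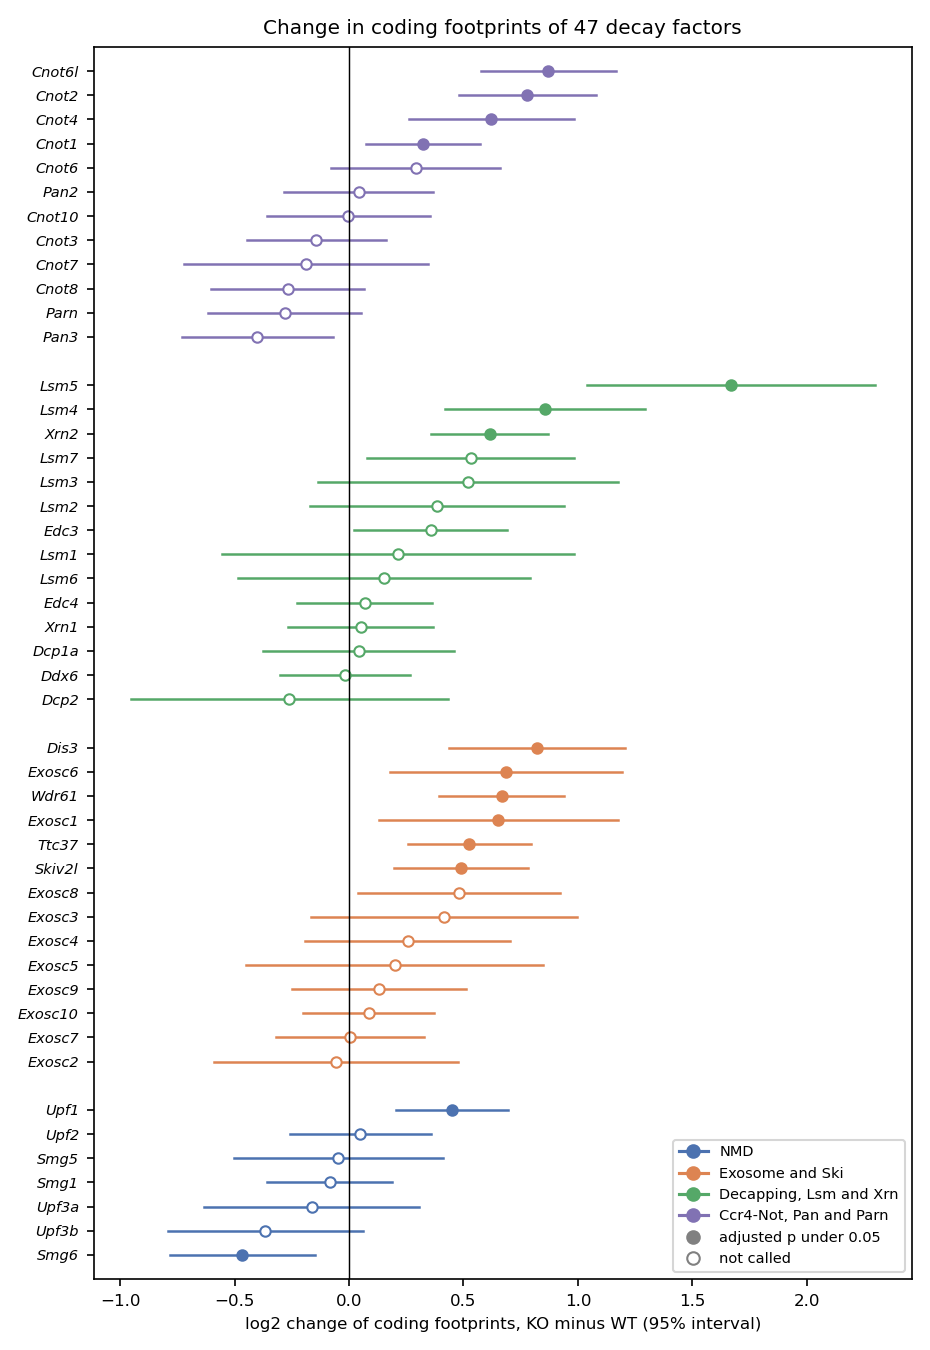
Log2 change of coding footprints (KO minus WT, horizontal axis) for the 47 tested factors, by sub-complex, with 95% intervals; filled points passed an adjusted p of 0.05 (edgeR). Lsm5 stands farthest to the right at 1.67, and Smg6 is the filled point left of 0.

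Upf1 was the NMD factor with the most footprints for its length, and it rose in KO, while the other Upf genes were not called. Upf1 is the ATP-driven helicase at the centre of the pathway. It held 221 and 215 CPM (counts scaled to a common library size) in KO and 159 and 160 in WT, so the KO libraries lay above both WT libraries. Its log2 change was 0.45 (SE 0.109, edgeR adjusted p = 0.00987), a fold of 1.37. Upf1 lost its call only with library totals (0.28, adjusted p = 0.0762). Upf2, the bridge between Upf1 and Upf3, held 41.3 and 47.9 CPM against 41.9 and 44.3, and the genotypes overlapped. The paralogs Upf3a and Upf3b link the surveillance complex to exon junctions. Upf3b held 12.4 and 12.8 CPM in KO and 15.8 and 16.6 in WT; these groups did not overlap, but the difference was not called (−0.37, adjusted p = 0.156), except with library totals (−0.54, adjusted p = 0.0489).

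Smg6 and Smg5 both act after Upf1 is phosphorylated by the kinase Smg1, and Smg6 cuts the target mRNA. Smg6 held 41.0 and 33.9 CPM in KO and 52.6 and 51.0 in WT, with both KO libraries below both WT libraries. Its log2 change was −0.47 (SE 0.141, edgeR adjusted p = 0.0266). The call did not hold with DESeq2 or without any of 3 libraries, where the adjusted p reached 0.162; it held without KO replicate 1. Smg1 held 113 and 106 CPM against 109 and 123 (−0.08), and Smg5 15.7 and 19.1 against 20.1 and 15.5 (−0.05), so their genotypes overlapped. The median of the 7 NMD factors was −0.08, with 1 higher and 1 lower.

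Exon junction proteins, which sit on spliced mRNA and flag it for NMD, rose in 4 of 6 members (66.7%, beside 19.9% of all genes). Rnps1 (log2 change 0.65), Magoh (0.60), its partner Rbm8a (0.55) and the helicase Eif4a3 (0.35) were higher, and Casc3 (−0.03) and Magohb (−0.45) were not called. No member fell in edgeR, adjusted or at an unadjusted p under 0.05, nor in DESeq2, which called 2 higher. Eif4a3 lost its call in 8 of 10 alternatives and Rbm8a in 4, among them the fits without KO replicate 1 and without WT replicate 1 for both. Among 11 tested further NMD genes 4 rose (36.4%, beside 19.9% of all genes) and 0 fell (beside 19.1%). The count of 0 was the same at an unadjusted p under 0.05 and in DESeq2. The risers were the translation termination factors Etf1 (0.75) and Gspt1 (0.64) and the paired ATPases Ruvbl1 (0.74) and Ruvbl2 (0.56). Ruvbl2 lost its call in 5 of 10 alternatives, among them those without KO replicate 1 (0.54) and without WT replicate 1 (0.35). Of the genes whose mRNAs are known to carry NMD-sensitive forms, 13 were tested and 5 rose (38.5%, beside 19.9% of all genes). They were the splicing factors Tra2b (0.63), Srsf2 (0.49), Hnrnpl (0.48), Srsf6 (0.41) and Srsf7 (0.40). DESeq2 called 3 of the 13. With library totals Srsf2 (0.32), Hnrnpl (0.31) and Srsf6 (0.23) lost their calls, as did Srsf6 with DESeq2 (0.42). Srsf2 also lost its call without WT replicate 1 (0.45), Hnrnpl without KO replicate 1 (0.40), and Srsf6 without KO replicate 2 (0.41), WT replicate 1 (0.42) or WT replicate 2 (0.40). The stress genes of that list were not called, among them Atf4 (0.30, adjusted p = 0.423) and Gadd45b (−0.14, adjusted p = 0.653). Srsf7, Atf4 and Gadd45b are named with their values known.

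All 3 Ski genes rose (100%, beside 19.9% of all genes), while most subunits of the exosome ring were not called. The Ski complex threads RNA into the cytoplasmic exosome, with Skiv2l as its helicase, Ttc37 as its scaffold and Wdr61 as a WD-repeat subunit that also belongs to the Paf1 complex. Wdr61 held 83.8 and 82.1 CPM in KO against 53.7 and 50.8 in WT (log2 change 0.67, SE 0.121, edgeR adjusted p = 0.00245). Ttc37 held 95.1 and 91.4 CPM against 63.5 and 66.0 (0.53, SE 0.119, edgeR adjusted p = 0.00745). Skiv2l held 103 and 89.7 CPM against 71.9 and 65.3 (0.49, SE 0.130, edgeR adjusted p = 0.0156). In each of the 3 genes both KO libraries lay above both WT libraries (100%, beside 71.9% of all genes not overlapping in either direction). Skiv2l lost its call with DESeq2, with library totals and without KO replicate 1 (0.39) or WT replicate 2 (0.43).

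Of the exosome's nucleases, Dis3 rose and Exosc10 did not pass. Dis3, the processive 3′ exonuclease at the exit of the ring, held 31.8 and 38.6 CPM in KO and 18.3 and 21.7 in WT (log2 change 0.82, SE 0.170, edgeR adjusted p = 0.00480). Its libraries separated by genotype. Exosc10, the nuclear exonuclease at the ring's entry side, held 53.4 and 57.4 CPM against 49.6 and 54.9 (0.09, 95% interval −0.20 to 0.37). The Dis3 to Exosc10 ratio per coding length was 0.550 and 0.621 in KO and 0.341 and 0.365 in WT. This ratio within a library does not depend on scaling, and the genotypes did not overlap.

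The ring and its cap are built from Exosc1 to Exosc9, which bind RNA but do not cut it in mammals. Among these 9, Exosc6 (log2 change 0.69, edgeR adjusted p = 0.0377) and the cap subunit Exosc1 (0.65, edgeR adjusted p = 0.0499) rose. That is 22.2% of the 9, near the 19.9% of all genes. Exosc6 held 11.5 and 13.2 CPM against 8.09 and 7.155, and Exosc1 11.3 and 11.2 against 6.51 and 7.85. Both separated by genotype on low counts, at most 57 footprints in a library. Exosc1 passed in none of the 10 alternatives and Exosc6 in 4. Exosc8 held 25.4 and 19.8 CPM in KO against 14.8 and 17.8 in WT and missed the threshold (0.48, edgeR adjusted p = 0.0794), though it passed without KO replicate 2 (0.65). The others were not called, at −0.06 (Exosc2), 0.20 (Exosc5), 0.26 (Exosc4) and 0.41 (Exosc3), with Exosc7 and Exosc9 between. Exosc3 moved to 0.058 without WT replicate 1 and to 0.80 without WT replicate 2, and Exosc5 from −0.31 without KO replicate 1 to 0.57 without KO replicate 2, with no call. DESeq2 called 0 of the 9, and 0 had an unadjusted p under 0.05 there. No exosome or Ski gene was lower in edgeR, also at an unadjusted p under 0.05, or in DESeq2.

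Among 13 further genes that feed or accompany the exosome, 1 rose (7.69%, beside 19.9% of all genes) and 2 fell (15.4%, beside 19.1%). The 13 include Pelo. Mphosph6, an exosome-associated protein of rRNA processing, was read 39 and 44 times in KO and 25 and 27 times in WT (0.84, edgeR adjusted p = 0.0354). Zcchc8, a scaffold of the nuclear exosome targeting complex, held 22.8 ± 2.60 CPM in KO against 36.1 ± 1.24 in WT (mean ± SD, n = 2 per genotype; log2 change −0.66, edgeR adjusted p = 0.00814). The nuclear exosome helicase Skiv2l2, known as Mtr4, was not called (0.18), nor were the cytoplasmic nucleases Dis3l (0.24) and Dis3l2 (−0.06). Mphosph6 lost its call in 5 of 10 alternatives, among them those without KO replicate 2 (0.72) and without WT replicate 1 (0.59), and Zcchc8 with DESeq2.

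Decapping factors were not called, while the nuclear exonuclease Xrn2 and the ring subunits Lsm4 and Lsm5 rose. Dcp2, the decapping enzyme, was a sparse member with 21 and 17 footprints in KO and 34 and 18 in WT (log2 change −0.26, 95% interval −0.95 to 0.43). Its activator Dcp1a held 22.7 and 19.3 CPM against 18.3 and 22.8, overlapping between genotypes. The scaffold Edc4 (0.07) and the helicase Ddx6 (−0.02) also overlapped. Ddx6, which represses translation and promotes decapping, held 185 and 165 CPM in KO and 164 and 190 in WT. Edc3, another enhancer of decapping, held 31.3 and 31.6 CPM against 23.2 and 26.1; its genotypes did not overlap, and it missed the threshold (0.36, edgeR adjusted p = 0.0859). Of these 5 tested genes, edgeR and DESeq2 each called 0; at an unadjusted p under 0.05 there was 1 higher, Edc3, in edgeR and 0 in DESeq2.

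Dcp1b, the paralog of Dcp1a, was listed in WT with 30 and 43 footprints and unlisted in both KO libraries. For its coding length of 1677 nt an unlisted value can be as high as 16 footprints. Dcp1b was therefore at least 2.10-fold lower in KO by group means, and at least 1.42-fold lower between the closest libraries. No test was made of it in the default analysis. With unlisted counts set to 0 it was called lower, but that setting puts KO at 0 and so fixes the direction in advance. The KO libraries listed 11794 and 11721 transcripts in all, against 12651 and 12223 in WT.

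The Xrn exonucleases degrade RNA from the 5′ end, Xrn1 in the cytoplasm and Xrn2 mainly in the nucleus. Xrn2 held 141 and 146 CPM in KO and 95.5 and 92.1 in WT (log2 change 0.61, SE 0.114, edgeR adjusted p = 0.00270), with no overlap. Xrn1 held 96.8 and 81.6 CPM against 79.3 and 93.2 (0.05, 95% interval −0.26 to 0.37), and its genotypes overlapped. Per coding length, Xrn2 exceeded Xrn1 by 2.67-fold and 3.27-fold in KO and by 2.201-fold and 1.81-fold in WT.

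The Lsm proteins form 7-membered rings on RNA. Lsm1 to Lsm7 make the cytoplasmic ring that promotes decapping, and with Lsm8 in place of Lsm1 the others make the nuclear ring of U6 snRNA. Lsm5 had 38 and 41 footprints in KO and 16 and 12 in WT. That is 8.38 and 9.53 CPM against 2.81 and 2.77, a log2 change of 1.67 (SE 0.279, edgeR adjusted p = 0.00156). It was the largest change among the 47 tested factors, a 3.18-fold difference with no overlap, resting on few footprints. Lsm4 held 21.4 and 22.1 CPM against 13.4 and 10.4 (0.86, SE 0.195, edgeR adjusted p = 0.00755). Lsm7 held 18.8 and 15.3 CPM against 11.4 and 12.2 and missed the threshold (0.53, edgeR adjusted p = 0.0631), though it passed without KO replicate 2 (0.67). All 7 had a log2 change above 0 with the default scaling, with a median of 0.52, the value of Lsm3 (adjusted p = 0.186); with library totals Lsm6 turned to −0.02. Lsm1, the subunit particular to the cytoplasmic ring, had 16 and 26 footprints against 21 and 20 (0.21, adjusted p = 0.659).

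**Figure D2:**
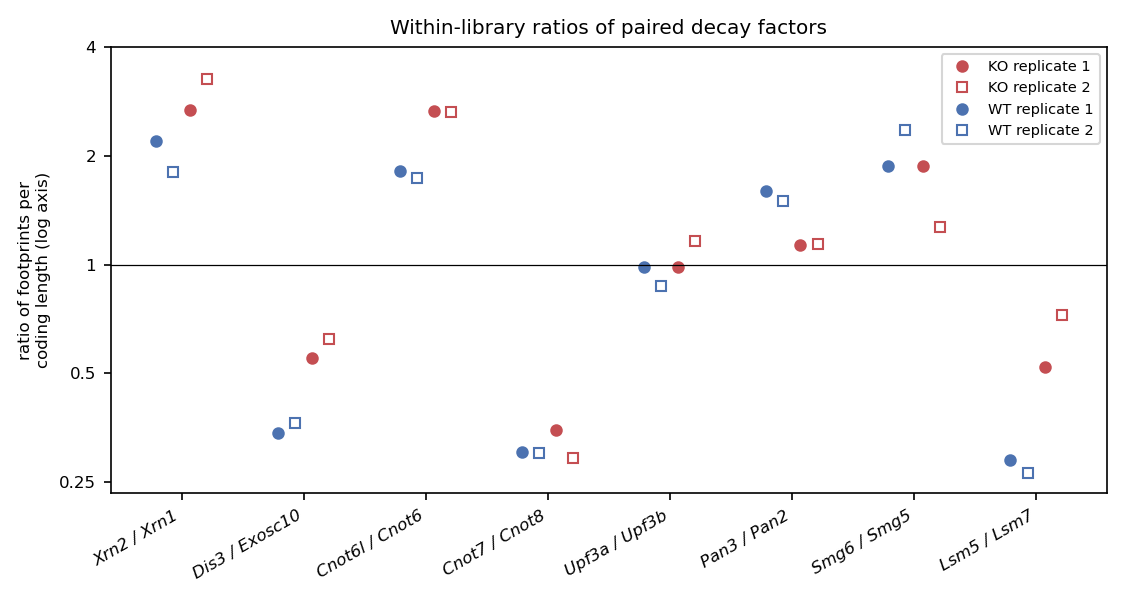
Ratio of coding footprints per coding length between paired factors within each library (logarithmic vertical axis), KO in red and WT in blue, replicate 1 filled and replicate 2 open. Dis3 / Exosc10, Cnot6l / Cnot6 and Lsm5 / Lsm7 lay higher in both KO libraries and Pan3 / Pan2 lower, while Cnot7 / Cnot8 overlapped.

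Short coding regions as a group carried more footprints in KO, and the Lsm genes are among the shortest here, at 183 to 357 nt. Of 1959 tested genes with coding regions under 600 nt, 32.1% were higher and 10.5% lower; among the 8 decay factors of that size, 3 were higher and 0 lower in edgeR. At 2400 nt and over, 15.2% of 2127 genes were higher and 28.3% lower, whereas 6 of 15 decay factors of that size were higher and 1 lower. Spearman's rho of log2 change against coding length was −0.20 across all tested genes and −0.26 across the 47 factors; genes of one set of libraries are not independent replicates.

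Among 11 tested genes around decapping, 3 rose (27.3%, beside 19.9% of all genes) and 1 fell (9.09%, beside 19.1%). Dxo, a nuclease that removes faulty caps, held 21.2 ± 0.943 CPM in KO against 9.37 ± 0.189 in WT (mean ± SD, n = 2; log2 change 1.17, edgeR adjusted p = 0.00130). Lsm12, an Lsm-domain protein outside the heptamer rings, rose by 1.06 and the cap-binding initiation factor Eif4e by 0.74. Lsm10, of the U7 snRNP, had 10 and 11 footprints against 33 and 16 and fell by 1.02 on the log2 scale, a call lost in 5 of 10 alternatives, including those without KO replicate 1 (−0.915), KO replicate 2 (−1.13) and WT replicate 1 (−0.64). The translational repressors Patl1 (−0.07) and Lsm14a (−0.09) were not called.

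In the Ccr4-Not complex, 4 of 9 genes rose (44.4%, beside 19.9% of all genes) and 0 fell (beside 19.1%). The deadenylase Cnot6l was among the risers, while the other catalytic subunits were not called. The count of 0 lower was the same at an unadjusted p under 0.05 and in DESeq2, which called 2 higher. KO and WT values did not overlap in 8 of the 9 genes (88.9%, beside 71.9% of all genes). Cnot6l, a Ccr4-type deadenylase, held 59.6 and 56.5 CPM in KO and 33.1 and 30.2 in WT (log2 change 0.87, SE 0.131, edgeR adjusted p = 0.000875). Its paralog Cnot6 held 22.5 and 21.4 CPM against 18.3 and 17.5; the genotypes did not overlap, and the change was not called (0.29, 95% interval −0.08 to 0.66). The Cnot6l to Cnot6 ratio per coding length was 2.66 and 2.65 in KO and 1.81 and 1.73 in WT. Of the Caf1-type deadenylases, Cnot8 held 24.0 and 25.3 CPM against 31.0 and 28.4 (−0.27, edgeR adjusted p = 0.183) and Cnot7 8.16 and 7.21 against 9.15 and 8.31 (−0.19, edgeR adjusted p = 0.565). In both of these paralogs the KO libraries lay below the WT libraries without passing the test, and their ratio overlapped between genotypes. Paralogs can share reads, and the sources used here do not say how such reads were counted.

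Cnot2, a structural subunit that pairs with Cnot3, held 69.3 and 59.97 CPM in KO and 38.3 and 36.9 in WT (log2 change 0.78, SE 0.133, edgeR adjusted p = 0.00174). Cnot3 itself held 33.5 and 32.5 CPM against 36.1 and 36.9 (−0.14, edgeR adjusted p = 0.434). The KO libraries were therefore above WT for Cnot2 and below WT for Cnot3. Cnot4, the RING-domain ubiquitin ligase linked to stalled ribosomes, held 31.3 and 27.4 CPM against 18.6 and 19.6 (0.62, SE 0.160, edgeR adjusted p = 0.0133). Cnot1, the scaffold, held 178 and 177 CPM against 146 and 139 (0.32, edgeR adjusted p = 0.0442), and Cnot10 overlapped (−0.0043). Cnot1 lost its call in 8 of 10 alternatives, among them each fit without 1 library (0.29 to 0.35), and Cnot4 in 4, among them those without KO replicate 1 (0.53) and WT replicate 1 (0.58).

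Pan2 and Pan3 form the deadenylase that shortens long tails, with Pan3 as the RNA-binding adaptor. Pan3 held 23.4 and 24.6 CPM in KO and 31.1 and 32.3 in WT and narrowly missed the threshold (log2 change −0.40, SE 0.146, edgeR adjusted p = 0.0548). It passed with library totals (−0.58) and with upper-quartile scaling (−0.43). Pan2 held 29.6 and 30.9 CPM against 27.97 and 30.9 (0.04), overlapping. Parn, a separate poly(A) ribonuclease, held 22.9 and 23.9 CPM against 27.97 and 29.1 without a call (−0.28, edgeR adjusted p = 0.164), and it passed with library totals (−0.46, adjusted p = 0.0407). Of the 8 within-library ratios computed for paired factors, 6 did not overlap between the genotypes, near the 71.9% of all genes whose CPM values did not overlap. Smg6 to Smg5 was separated only narrowly, at 1.869 and 1.27 in KO against 1.871 and 2.35 in WT. The pairs were chosen by role with their values known, and with 2 libraries against 2 an exact permutation test cannot go below 0.333.

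Among 26 further genes of deadenylation, 6 rose (23.1%, beside 19.9% of all genes) and 3 fell (11.5%, beside 19.1%), with a median of 0.01. DESeq2 called 4 higher and 1 lower. Ccrn4l, the deadenylase-like protein nocturnin, held 41.5 ± 1.19 CPM in KO against 11.7 ± 1.68 in WT (mean ± SD, n = 2; log2 change 1.83, edgeR adjusted p = 4.57e-05). Pabpc1, the main cytoplasmic poly(A)-binding protein, held 382 ± 38.1 CPM against 168 ± 1.63 (1.19, edgeR adjusted p = 7.7e-05). The antiproliferative Btg3 rose by 0.89 and Pde12, a mitochondrial poly(A) nuclease, by 0.83. The 3 genes that fell were Angel1 (−0.66, edgeR adjusted p = 0.0487) and the microRNA effectors Ago1 (−0.80, edgeR adjusted p = 0.0135) and Tnrc6c (−0.57, edgeR adjusted p = 0.0108). They are named here after their values were seen.

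Levels can be compared between genes per coding length, here as coding footprints per kb, scaled to the library's total. In NMD, Upf1 stood at 49.4 to 61.8 in the 4 libraries, while the other 6 genes ranged from 4.81 to 13.5. In the exosome ring and its cap, Exosc7 was highest in each library, at 33.1 to 38.5, and Exosc2 lowest, at 8.15 to 10.4. The levels of the 9 ring and cap genes thus spanned 3.72-fold to 4.24-fold in a library. Wdr61, at 60.7 to 91.0, was far above its Ski partners Skiv2l (18.2 to 25.9) and Ttc37 (14.6 to 18.9). Among decapping genes Ddx6 had the highest level of all 48 factors in each library, at 112 to 140, and Dcp2 ranged from 3.11 to 5.32. Lsm5 stood at 14.0 and 13.2 in WT, among the lowest of its ring with Lsm1 (11.6 and 13.9), and at 35.7 and 42.0 in KO, within the range of Lsm2 to Lsm7 there (25.8 to 68.5).

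**Figure D3:**
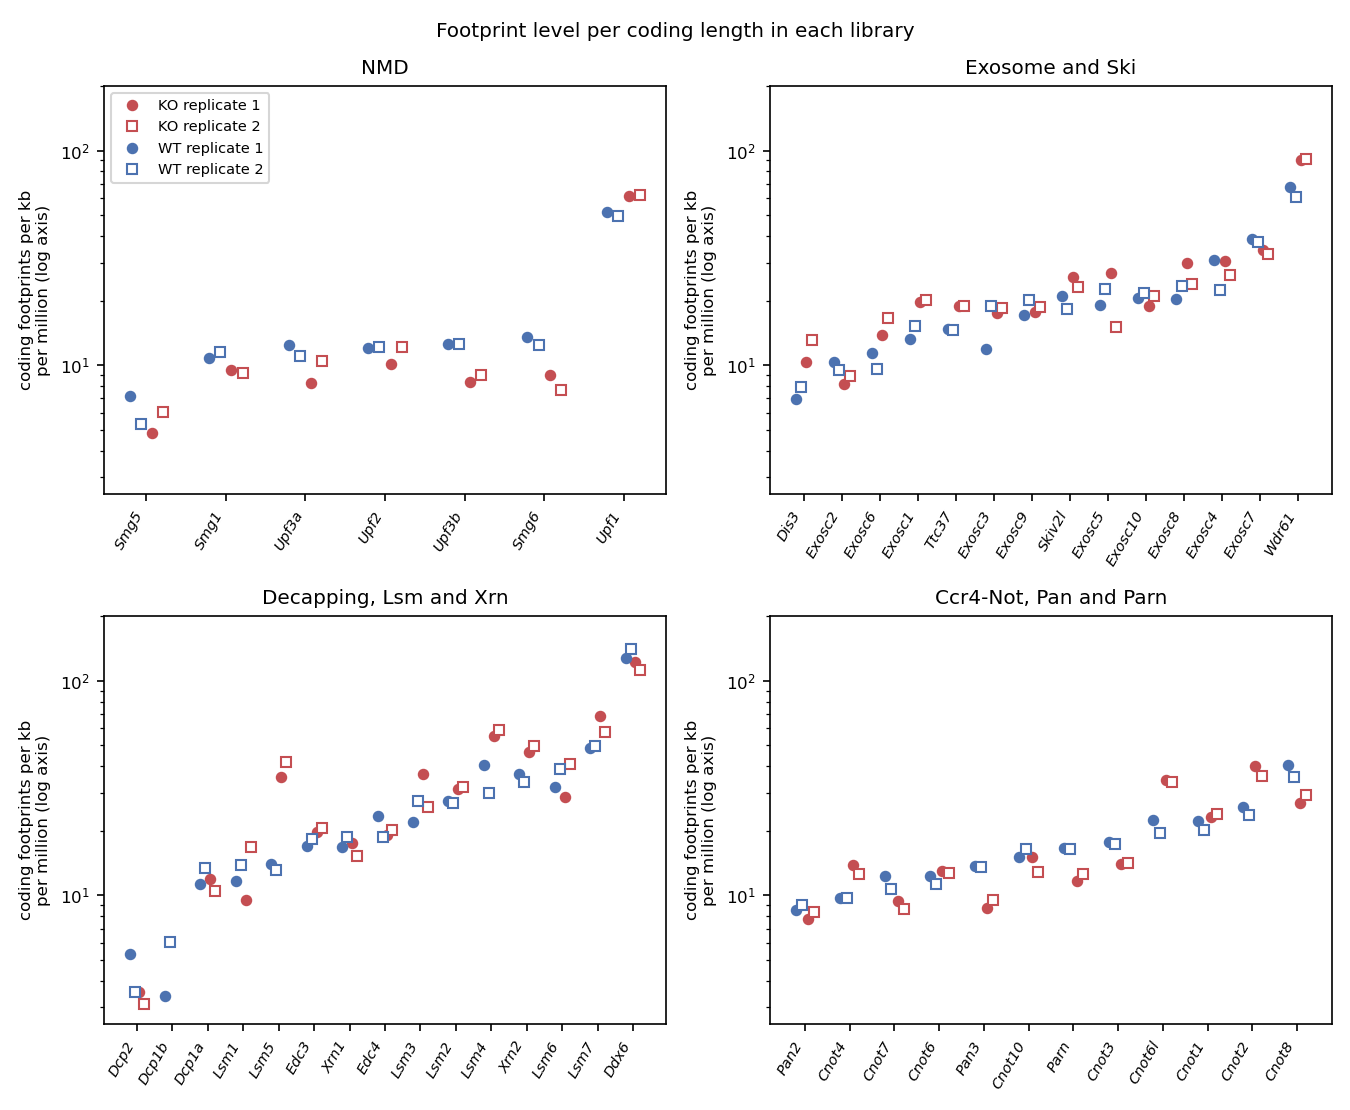
Coding footprints per kb of coding region, scaled to the library's total (logarithmic vertical axis) for the 48 factors in each library, ordered by their mean in WT within each sub-complex. Ddx6, Wdr61 and Upf1 stood highest in their panels, and Lsm5 shows a wide gap between KO in red and WT in blue; Dcp1b has WT points only.

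By sub-complex, 6 of 14 genes (42.9%) were higher for exosome and Ski, 4 of 12 (33.3%) for the deadenylases, 3 of 14 (21.4%) for decapping, Lsm and Xrn, and 1 of 7 (14.3%) for NMD, beside 19.9% of all genes. The shares for decapping and NMD lie near that of all genes, and the difference between the sub-complexes was not tested. Their medians were 0.45, 0.02, 0.28 and −0.08 in that order. Summed over its genes, the exosome and Ski group took 533 and 508 CPM in KO and 383 and 397 in WT, a ratio of 1.34. The deadenylases took 538 and 517 against 448 and 444 (1.18), decapping with Lsm and Xrn 643 and 609 against 529 and 563 (1.15), and NMD 455 and 448 against 413 and 423 (1.08). In each of the 4 sums both KO libraries were above both WT libraries with this scaling. As shares of all coding footprints, without that scaling, NMD lay at 0.0419% and 0.0426% in KO and 0.0445% and 0.0434% in WT, the opposite order, and exosome and Ski at 0.0491% and 0.0483% against 0.0412% and 0.0407%. DESeq2 and library totals each brought the exosome and Ski count to 3, as did leaving out WT replicate 2, and each brought the deadenylase count to 2, as did leaving out KO replicate 1 or WT replicate 1.

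Footprints in the 3′ UTRs of these genes were fewer in KO. Over the 47 factors with values in all libraries, they numbered 27 and 39 in KO and 101 and 79 in WT, or 0.274 and 0.435 per 100 coding footprints against 1.01 and 1.00. The same ratio over all 10886 transcripts was 0.564 and 0.637 against 0.703 and 0.672, where the 10 highest transcripts held 52.4% of the counts, and without these 10 it was 0.241 and 0.279 against 0.353 and 0.372. In the WT libraries most of these counts came from 5 genes. Smg1 had 3 and 8 of them in KO libraries and 19 and 12 in WT libraries, Ddx6 6 and 5 against 15 and 14, Upf1 0 and 4 against 10 and 8, Dcp1a 2 and 0 against 13 and 6, and Pan3 1 and 5 against 14 and 6. In all 5 genes both KO libraries were below both WT libraries. The genes were named for these counts, so this order is no separate result about them. The share of all transcripts whose 3′ UTR counts separate in this way is not given here. The exosome and Ski genes had 4 and 1 such footprints in KO and 0 and 1 in WT.

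Only Smg1 and Ddx6 had enough 3′ UTR footprints for the test of the 3′ UTR to coding ratio, an interaction in edgeR scaled within each region. Neither was called (Smg1 −0.75, adjusted p = 0.330; Ddx6 −0.73, adjusted p = 0.378), and 0 had an unadjusted p under 0.05. The Smg1 value moved to −0.20 without KO replicate 1 and to −1.58 without KO replicate 2, with no call. Of 223 genes fitted, 25.6% were called, 13.0% higher and 12.6% lower. With a minimum of 5 counts, 6 factors could be fitted and 0 were called; the smallest adjusted p was that of Dcp1a (−2.57, adjusted p = 0.0875). No other tool was run on this ratio.

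Footprints in 5′ UTRs were found mainly on Ddx6 and the Ccr4-Not genes. Ddx6 had 67 and 50 in KO and 40 and 33 in WT, or 7.98% and 7.06% of its coding count against 4.28% and 4.005%. Cnot6 had 15 and 17 against 18 and 7, and Cnot1 31 and 23 against 31 and 13, both overlapping between the genotypes. Lsm2 had 8 and 16 against 4 and 1, on a 5′ UTR of 223 nt. Its ratio to coding footprints was not called in edgeR with a minimum of 5 counts (log2 change 1.40, adjusted p = 0.384). Over all 10739 transcripts, 5′ UTR footprints per 100 coding footprints were 1.53 and 1.78 in KO against 1.11 and 1.01 in WT. Against this background the ratio of Ddx6 was not called (0.15, adjusted p = 0.804), nor that of Upf1, Smg1, Cnot1 or Cnot6, and 0 of these 5 had an unadjusted p under 0.05. In that edgeR test, 1.67% of 1618 genes were called, 0.618% higher and 1.05% lower; with a minimum of 5 counts again 0 decay factors were called, and no other tool was run.

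**Figure D4:**
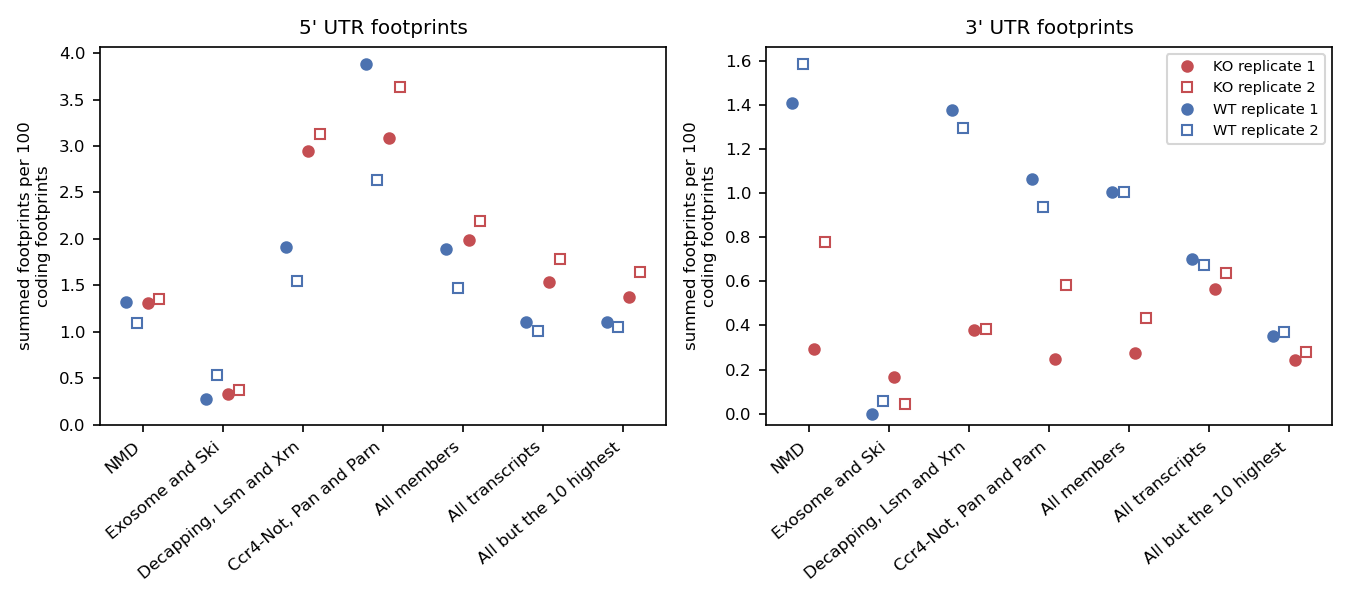
Summed 5′ UTR footprints (left) and 3′ UTR footprints (right) per 100 coding footprints in each library, for the 4 sub-complexes, all members and all transcripts with and without the 10 transcripts highest in that region; KO in red, WT in blue. On the right, the NMD, decapping and deadenylase groups lay lower in both KO libraries than in both WT libraries, and the exosome group lay near 0.

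Promoter sequence from RefSeq (GRCm38.p6) was used for 38 of the 48 factors, as windows from 250 bases before to 50 after the gene start. Windows on 1 chromosome were left out, for the factors and for all tested genes. A factor without sequence here may therefore have it in RefSeq. A gene with more than 1 window counted if any of them matched. Searched on both strands, the NRF1 core CGCATGCG occurred in 5 of these 38 genes and in 4.42% of 8159 tested genes with such a window. It occurred in 2 of the 10 risers with a promoter, Upf1 and Ttc37, and in 3 of the 26 factors not called. The ETS motif CCGGAAGT occurred in 5 of 38, 2 of them risers (Xrn2 and Lsm5) and 3 not called, against 9.36% of tested genes. The E-box CACGTG occurred in 3 of 38 (11.8% of tested genes), the YY1 core AAGATGGC in 5 (5.42%), the CREB motif TGACGTCA in 1 (3.60%) and the CCAAT box CCAAT in 15 (42.1%). Risers and factors not called held the E-box in 2 and 1, the YY1 core in 0 and 4, the CREB motif in 0 and 1, and the CCAAT box in 4 and 11. The NRF1 and YY1 cores are shorter than the forms searched first, which matched fewer promoters. A match is a description of letters, not a binding site. To show where the NRF1 and ETS matches lie in these 4 risers, 30 bases around each are printed on the gene's strand, 5′ to 3′, with the motif or its reverse complement in capitals.
Upf1 (NRF1, chr8:70353500-70353529, minus strand, match starting at −245 from the gene start): atgcgCGCATGCGcaccgctaggcagcagt
Ttc37 (NRF1, chr13:76098659-76098688, plus strand, match starting at −64): ccaagggcaggCGCATGCGcaaaaaccaat
Xrn2 (ETS, chr2:147012991-147013020, plus strand, match starting at 3): ggtatgacgtaACTTCCGGccgctgaacgc
Lsm5 (ETS, chr6:56704665-56704694, minus strand, match starting at 16): tgtccttagccACTTCCGGcgtggccatgg

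Overlap between genes may limit some of these values. In the same RefSeq build, all 48 factors were matched and the spans of 13 overlap a protein-coding gene. Among the called factors these are Upf1 (with Gdf1 and Cers1), Dis3 (with Pibf1), Smg6 (with Srr and Hic1), Cnot1 (with Setd6) and Cnot6l (with a predicted gene). Whole gene spans were compared, introns included, so whether an overlap falls in a coding region was not examined. The sources used here do not say whether the counting used strand. Where an overlap falls in a coding region, reads from the partner cannot be told apart.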

How the data were processed

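Footprint counts were analysed for 4 ribosome profiling libraries, grouped by the genotype in their titles. Per the file headers, the deposited table gives raw counts of footprints in the coding region, 5′ UTR and 3′ UTR of each transcript on mm9 annotation, with the authors' region lengths in nt (the unit is listed as other). Bowtie2 2.2.6, TopHat2 2.0.10 and CASAVA 1.8 appear without a role in the submitters' processing notes, and the sources used here do not say how reads matching several places were treated. The tables described as footprints of 28 to 34 nt and of 20 to 22 nt are byte-identical, so the length class is unknown. Counts are listed only above 0.01 footprints per nt.

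Of 11019 transcripts listed in all 4 libraries, 10953 had at least 10 counts in at least 2 and were tested with edgeR 4.0.16 (R 4.3.3; TMM, quasi-likelihood, Benjamini-Hochberg over all genes, threshold 0.05). CPM uses TMM-scaled library sizes. Standard errors are the log2 change over the square root of F. The script was tested on simulated data. DESeq2 1.42.0, other scalings, filters, a replicate block and leaving out each library were alternatives. Replicates differed by more than sampling noise (chi-square per gene 5.62 in KO, 9.64 in WT); since no label states separate animals, p-values measure the spread between these libraries. The members, lists and pairs were chosen with earlier results of these data known. All 48 members are named, and up to 4 called genes of each other list with the largest change; others named were chosen after their values were seen. Promoter matches for NRF1 and YY1 use shorter cores than a first search whose counts were seen (longer forms matched fewer promoters).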

Additional observations from a re-analysis of the deposited data

How the results depend on the processing

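Of the 15 called factors, 8 kept their call and direction in all 10 alternatives, and of 23 other called genes that the naming rule picked, 14 did. The same share over all called genes is not given here. Against 14 higher and 1 lower, DESeq2 gave 9 and 0 (over all genes 1492 and 1177 against 2184 and 2093), library totals 8 and 4, and the lower count was 2 with upper-quartile scaling and 2 with unlisted counts at 0. By group, DESeq2 gave 3 higher for exosome and Ski, 2 for the deadenylases and 0 lower for NMD. Library totals gave 0 higher and 2 lower for NMD, 3 higher for exosome and Ski, and 2 higher and 2 lower for the deadenylases. Upper-quartile scaling gave 1 lower deadenylase gene. Unlisted counts at 0 gave 1 lower decapping gene, Dcp1b, whose direction that setting fixes in advance. Leaving out 1 library gave 10 to 13 higher and 0 to 1 lower in all, 0 to 1 lower for NMD, 3 to 5 higher for exosome and Ski, and 2 to 3 higher for the deadenylases; the lone library of its genotype was then assumed to vary like the others. The cause of these shifts was not tested. Factors that changed sign were not called in either analysis. With library totals these were Upf2 (−0.12), Exosc7 (−0.17), Exosc9 (−0.044), Exosc10 (−0.088), Dcp1a (−0.13), Edc4 (−0.11), Lsm6 (−0.023), Xrn1 (−0.12) and Pan2 (−0.13). With upper-quartile scaling Exosc7 stood at −0.031, and with DESeq2 Cnot10 stood at 0.0038. Leaving out 1 library moved Upf2 from −0.058 to 0.16, Smg1 from −0.17 to 0.0037, Smg5 from −0.21 to 0.16, Exosc5 from −0.31 to 0.57, Exosc7 from −0.052 to 0.060, Exosc9 from −0.027 to 0.28, Dcp1a from −0.13 to 0.20, Dcp2 from −0.47 to 0.043, Edc4 from −0.048 to 0.20, Ddx6 from −0.13 to 0.093, Lsm1 from −0.21 to 0.56, Lsm6 from −0.090 to 0.37, Xrn1 from −0.074 to 0.17, Cnot10 from −0.15 to 0.13 and Pan2 from −0.039 to 0.12. For the 5′ UTR ratio it moved Upf1 from −0.91 to 0.73 and Cnot6 from −0.77 to 0.050. With the replicate number as a block, 12 factors were higher and 1 lower, and Exosc1 and Cnot1 lost their calls. Same-numbered libraries did not deviate together (r = −0.0057 across genes). That value cannot settle whether the numbers pair the libraries, and no label states it. Depth limits the sparse factors: Lsm5, Lsm1 and Dcp2 rested on 12 to 41 footprints per library, and 3′ UTR counts mostly lay under the filter.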
